A study of Mus musculus with 3 samples.

Results

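The genes of mitochondrial oxidative phosphorylation were examined for accessible promoters in MEL cells, a mouse erythroleukemia line that serves as a model of red cell precursors. Members were the protein-coding nuclear genes of the GENCODE M21 basic annotation whose symbols begin with Nduf, Sdha, Sdhb, Sdhc, Sdhd, Uqcr, Cox4i, Cox5, Cox6, Cox7, Cox8 or Atp5. There were 98 such genes, with 97 symbols, among 21851 protein-coding genes. They comprised 76 subunits made in most tissues, 8 tissue isoforms of complex IV subunits, and 14 assembly or other factors that the same prefixes take in.

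The study mapped DNase I hypersensitive sites, stretches of chromatin that the nuclease DNase I cuts readily because they are open. All 3 libraries came from the immortalized MEL line, for which the labels name no treatment, and formed 1 condition with 2 biological replicates, so no treatment, genotype or tissue was compared. Biological replicate 1 had 2 technical libraries, called together, and biological replicate 2 had 1 library. Each replicate thus gave 1 list of peaks, and a difference between lists has no spread to be set against.

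Oxidative phosphorylation is the last stage of respiration. Complexes I and II pass electrons from NADH and succinate to coenzyme Q, complex III passes them on to cytochrome c, complex IV reduces oxygen, and complex V (ATP synthase) makes ATP from the proton gradient that complexes I, III and IV build. Some subunits are encoded in the mitochondrial genome and the rest in the nucleus, where nuclear respiratory factor 1 (NRF1), the ETS-family factor GABP and YY1 are known regulators of many of them. Red cell precursors need mitochondria for heme synthesis and lose them as they mature.

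A promoter peak here is a deposited 150 bp peak centred within 1000 bp of a start of a protein-coding transcript of the gene. Each peak carries the authors' score, a whole number from 1 to 150. The sources used here do not say what this number counts, and it serves to order peaks within a list. The list of replicate 1 holds 281600 peaks (median score 73) and that of replicate 2 holds 89046 (median score 32), so scores are not compared between the lists. The labelled cell type was checked on marker genes: 6 of 6 erythroid markers had a promoter peak in both lists, among them Gata1 with scores of 141 in replicate 1 and 71 in replicate 2. Of 7 muscle markers, 2 had a promoter peak in replicate 1 and 0 in replicate 2. Of 4 hepatocyte markers these numbers were 2 and 1, and of 4 neuron markers 1 and 0.

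Nearly all oxidative phosphorylation genes had an open promoter. A promoter peak was present at 93 of 98 genes (94.9%, Wilson 95% interval 88.6 to 97.8%) in replicate 1, against 58.3% of all protein-coding genes. In replicate 2 it was present at 92 of 98 (93.9%, 87.3 to 97.2%), against 49.4% of all genes. The same 92 genes had one in both lists, against 49.4% of all genes. The intervals cover counting error over genes only. Other large sets of broadly used genes were also high: 76 of 78 mitochondrial ribosomal protein genes and 46 of 50 proteasome subunit genes had a promoter peak in replicate 2. The high share is therefore not particular to oxidative phosphorylation.

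The members without a peak were mostly tissue isoforms. Of the subunits made in most tissues, 75 of 76 had a promoter peak in both lists, and so did 14 of 14 assembly and other factors. Among the 8 tissue isoforms the number was 4 in replicate 1 (50%, interval 21.5 to 78.5%) and 3 in replicate 2 (37.5%, 13.7 to 69.4%). These shares are near the 58.3% and 49.4% of all genes, so the isoforms had peaks about as often as protein-coding genes at large, within the counting error of 8 genes. Scores of the peaks themselves were close to those of other promoters. The median score of members was 142 in replicate 1 and 66.5 in replicate 2, against 139 and 63 over all genes with a promoter peak, and 51 of 92 members lay above the all-gene median in replicate 2.

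**Figure D1:**
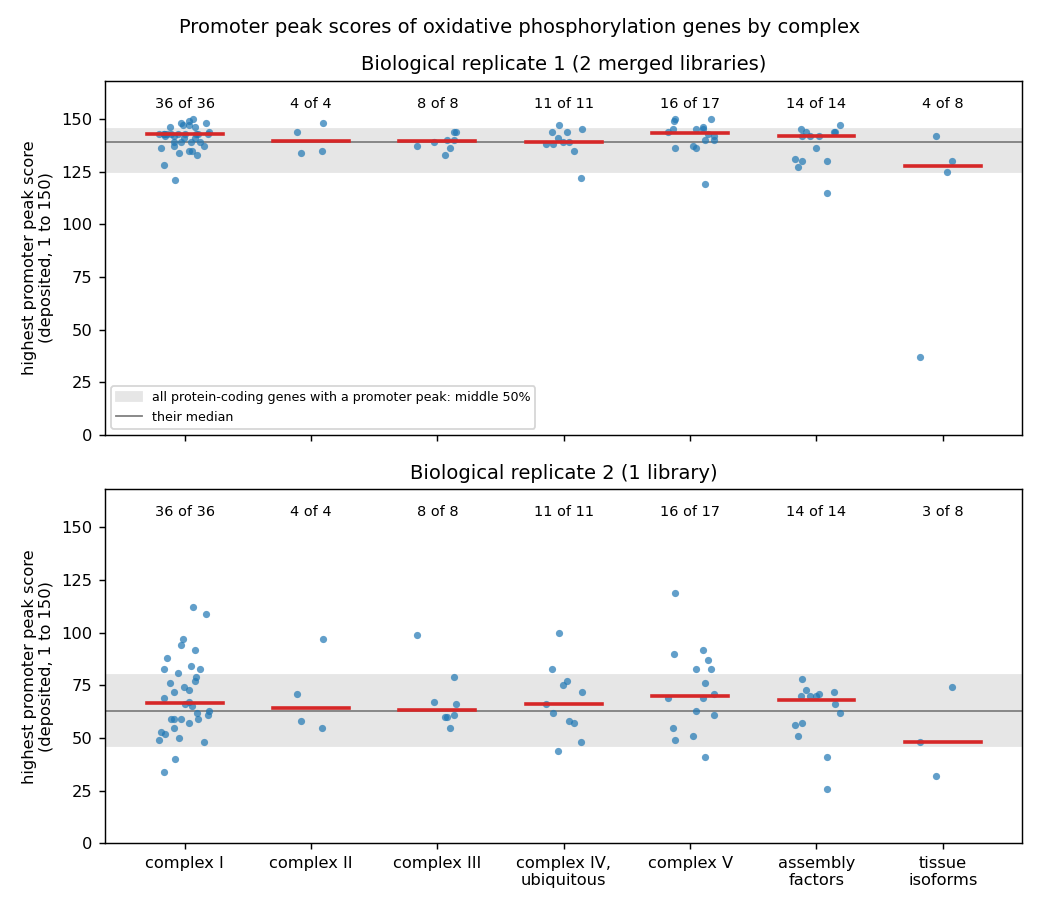
Highest promoter peak score (y axis, deposited score without a unit) of each gene by class (x axis), with replicate 1 above and replicate 2 below. Points are genes, red bars are class medians, the grey band is the middle 50% and the grey line the median of all protein-coding genes with a promoter peak, and the numbers above give genes with a peak of all genes in the class. All classes but the tissue isoforms have a peak at every gene or all but 1, and their medians lie near the grey line.

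Complex I, the entry point for electrons from NADH, contributed 36 nuclear genes, and all 36 had a promoter peak in both lists. The highest replicate 2 scores belonged to core subunits, some of which carry redox centres. Ndufs8, an iron-sulfur subunit, scored 150 in replicate 1 and 112 in replicate 2. Ndufv1, which binds NADH and the flavin cofactor, scored 148 and 109. Lower replicate 2 scores were found at other core genes, with Ndufs1, the largest subunit, at 147 and 73, Ndufv2 at 146 and 76, Ndufs7 at 143 and 69, and Ndufs3 at 143 and 59. The core genes thus spanned from 59 to 112 in replicate 2, and 4 accessory genes (Ndufa1, Ndufb7, Ndufc1 and Ndufc2) scored below 50 there. Of the accessory subunits, Ndufa2 (148 and 94) was highest in replicate 2, and Ndufa1 (128 and 34), a small protein of the membrane arm, was lowest there. In replicate 1 the highest was Ndufa12 (149) and the lowest Ndufc1 (121). The replicate 2 peaks at Ndufa2 and Ndufa1 lay nearer the starts of Ik and Rnf113a1, genes read in the opposite direction.

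Complex II, succinate dehydrogenase, is the only complex of the electron transport chain with no subunit from the mitochondrial genome, and its 4 genes all had a promoter peak. Sdhb, the iron-sulfur subunit, scored 148 in replicate 1 and 97 in replicate 2. Sdhd, a membrane anchor, scored 144 and 71. Sdha, the flavoprotein that oxidizes succinate, scored 134 and 58, and Sdhc, the other anchor, scored 135 and 55. Sdhb was the highest of the complex in both lists.

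All 8 complex III genes had a promoter peak in both lists. Uqcrq, a small accessory subunit, led replicate 2 with 99 although its replicate 1 score of 137 was below the class median of 139.5. Uqcr10 scored 144 and 79, at a peak nearer the start of its divergent neighbour Zmat5. Uqcrc2, a core protein, scored 139 and 67. Uqcrfs1, the Rieske iron-sulfur protein, scored lowest in replicate 2, with 136 and 55. The remaining genes lay between 60 and 66 in replicate 2, so Uqcrq and, by less, Uqcr10 lay above a group of similar scores.

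The 11 complex IV subunits made in most tissues all had a promoter peak. Ndufa4 is counted here, since its protein, first assigned to complex I, belongs to complex IV. Cox8a scored 147 in replicate 1 and 100 in replicate 2, Cox7b scored 144 and 83, and Cox7c scored 144 and 77. The lowest replicate 2 score was that of Cox5a, with 141 and 44. Cox4i1, which encodes the largest nuclear subunit, scored 122 and 48. Its strongest peak lay 829 bp downstream of a start in replicate 1 and 11 bp upstream in replicate 2, so these values come from different sites 840 bp apart.

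Of 17 complex V genes, 16 had a promoter peak in both lists. In the catalytic F1 head, Atp5d (delta subunit) scored 146 and 92, Atp5b (the catalytic beta subunit) 149 and 90, Atp5c1 (gamma) 145 and 69, Atp5e (epsilon) 137 and 51, and Atp5a1 (alpha) 136 and 49. The head's genes thus spanned from 49 to 92 in replicate 2, with the alpha subunit lowest and the delta and beta subunits highest. The proton-carrying ring of c subunits is encoded by 3 genes whose mature proteins are the same. Atp5g1 scored 150 in replicate 1 and 119 in replicate 2, the highest replicate 2 score of all members, whereas Atp5g2 scored 143 and 87 and Atp5g3 scored 145 and 55. In the stalk and membrane part, Atp5mpl, a small associated protein, had the lowest scores, 119 and 41.

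The gene without a peak was the second of 2 annotated genes named Atp5o, which encodes the stalk subunit OSCP. The first (ENSMUSG00000022956.11, chromosome 16, 91925214 to 91931687 in mm10) scored 144 and 69. The second (ENSMUSG00000116933.1, 91684398 to 91926982) starts inside the first, and its nearest peaks lay 3929 bp away in replicate 1 and 4689 bp away in replicate 2. The symbol thus had an open promoter by 1 of its 2 gene models.

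Most genes of the class of assembly and other factors help build the complexes without being part of them. The class also takes in Cox7a2l, which acts in joining complexes into supercomplexes, and Atp5s, another factor with an ATP synthase name. All 14 genes of this class had a promoter peak in both lists, with medians of 142 and 68. Sdhaf2, which attaches the flavin to Sdha, scored 142 and 78. The complex I factors Ndufaf5 and Ndufaf7 scored 144 and 73, and 144 and 72. Sdhaf1, which acts in complex II assembly, scored lowest, with 115 and 26. Its strongest peaks lay 764 bp downstream of the start in replicate 1 and 944 bp downstream in replicate 2, and neither list had a peak within 500 bp of the start.

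Tissue isoforms replace a common subunit of complex IV in particular organs, such as heart and skeletal muscle, lung or testis. Cox7a1, the heart and muscle form, was the only one of them to score above its partner in either list. It scored 142 in replicate 1 and 74 in replicate 2, beside 145 and 72 for its common partner Cox7a2. The peak was at the same position in both lists, centred 53 bp upstream of the start, within hotspots (wider accessible regions) that measured 966 bp and 686 bp. This muscle form thus had an open promoter in both lists. Of the 7 muscle markers, 2 had a promoter peak in replicate 1, Myh7 (58) and Tnnt2 (47), and 0 in replicate 2.

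Cox6b2, the testis form, scored 130 and 48 beside 135 and 57 for Cox6b1. Ndufa4l2, known as a hypoxia-induced relative of Ndufa4, scored 125 and 32 beside 139 and 58. Its 3 weak replicate 2 peaks scored 32, 26 and 25 and were centred 596, 416 and 176 bp upstream. Cox6a2, the heart and muscle form, scored 37 in replicate 1, within a hotspot of 204 bp, and had no promoter peak in replicate 2, beside 138 and 66 for Cox6a1. These 3 genes were lower than their partners in each list where they had a peak.

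Promoter peaks were absent from both lists at Cox4i2 (a lung form), Cox7b2 (a testis form), Cox8b (a heart and muscle form) and Cox8c (a testis form). Their partners Cox4i1, Cox7b and Cox8a had peaks in both. The nearest replicate 2 peak was 11542 bp from Cox4i2, 2454 bp from Cox7b2, 2965 bp from Cox8b and 20785 bp from Cox8c. In replicate 1 these distances were 1197, 2434, 1275 and 3805 bp. The share of 32-bp words within the promoter window that occur once in the genome was 98.9% at Cox4i2, 99.9% at Cox7b2, 100% at Cox8b and 98.5% at Cox8c, so repeated sequence took up little of these windows. At Cox7a1, which had a peak, this share was 87.6%.

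**Figure D2:**
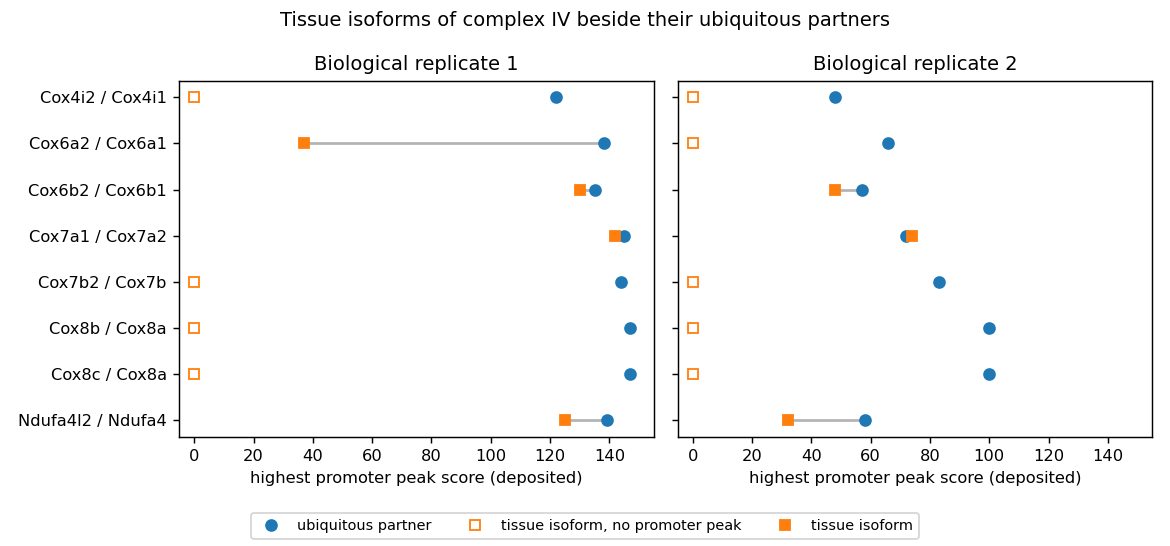
Highest promoter peak score (x axis, deposited score without a unit) of the 8 tissue isoforms (orange squares) and their partners made in most tissues (blue circles), with replicate 1 left and replicate 2 right. Open squares at 0 mark isoforms with no promoter peak. Cox7a1 lies beside its partner, with 142 against 145 and 74 against 72, while the other 7 isoforms score lower than their partners or have no peak.

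Promoters rich in CpG dinucleotides are often open in many cell types. The CpG observed/expected ratio was taken over 500 bp on either side of the most upstream start. Its median was 0.73 in the 92 members with a replicate 2 peak, the same as in all genes with one. In the 5 members without a peak in either list it was 0.38 (range 0.25 to 0.47), against 0.25 in all genes without one. All 85 members at or above a ratio of 0.5 had a promoter peak in both lists, against 79.2% of all such genes in replicate 1 and 73.5% in replicate 2. Of the 13 members below 0.5, 8 had a peak in replicate 1 and 7 in replicate 2. That is 61.5% and 53.8%, against 32.6% and 20% of all such genes. Among these, Atp5f1 and Sdhaf1 had only peaks centred more than 500 bp from a start, outside the stretch whose CpG content was measured. The same held for Ndufa13, at a ratio of 0.94, in replicate 2. The tissue isoforms were all below 0.5, as were the second Atp5o, Atp5f1, Atp5j2, Cox7b and Sdhaf1. CpG content and isoform class therefore moved together, and their parts in the missing peaks cannot be told apart.

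**Figure D3:**
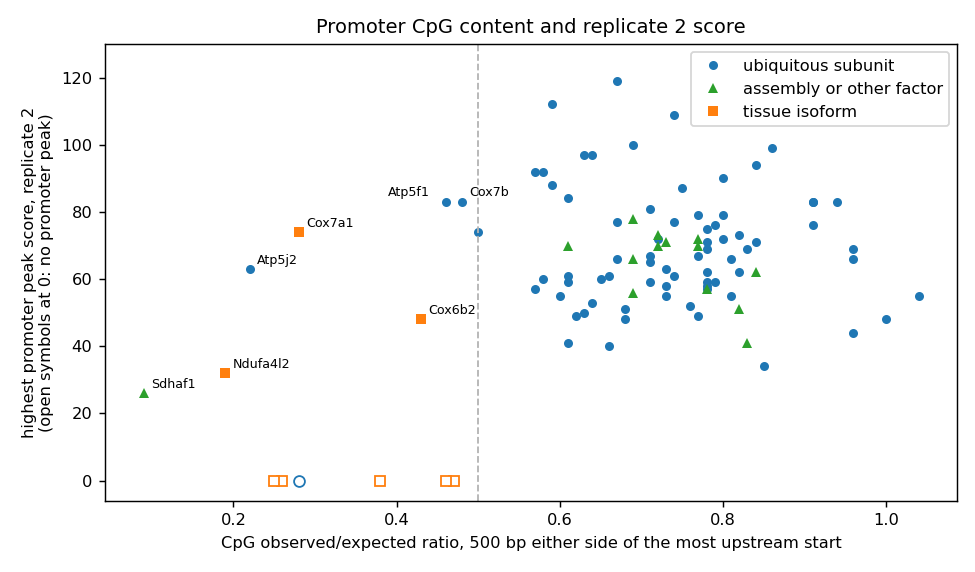
CpG observed/expected ratio around the most upstream start (x axis) and highest replicate 2 promoter peak score (y axis) of the 98 genes, by class. Open symbols at 0 have no replicate 2 promoter peak, the dashed line is at 0.5, and genes with a peak below it are named. Every gene to the right of the line has a peak.

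Peaks of members lay close to the start. In replicate 2 the centre of the strongest peak was a median of 46.5 bp from the nearest start, against 83 bp over all genes, and 80 of 92 (87.0%) lay within 150 bp, against 68.7%. The share centred upstream was 77.2%, against 76.5% over all genes. In replicate 1, 80 of 93 (86.0%) lay within 150 bp, against 61.6%. The median hotspot around these replicate 2 peaks was 527.5 bp wide, against 495 bp for all genes. The members were thus nearer to their starts than promoters at large in both lists, with hotspots of similar width. This was not particular to them. In replicate 2 the median distance was 52 bp at mitochondrial ribosomal protein genes and 53 bp at proteasome genes. The shares within 150 bp were 81.6% and 93.5% there, and 80.8% and 84.8% in replicate 1.

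**Figure D4:**
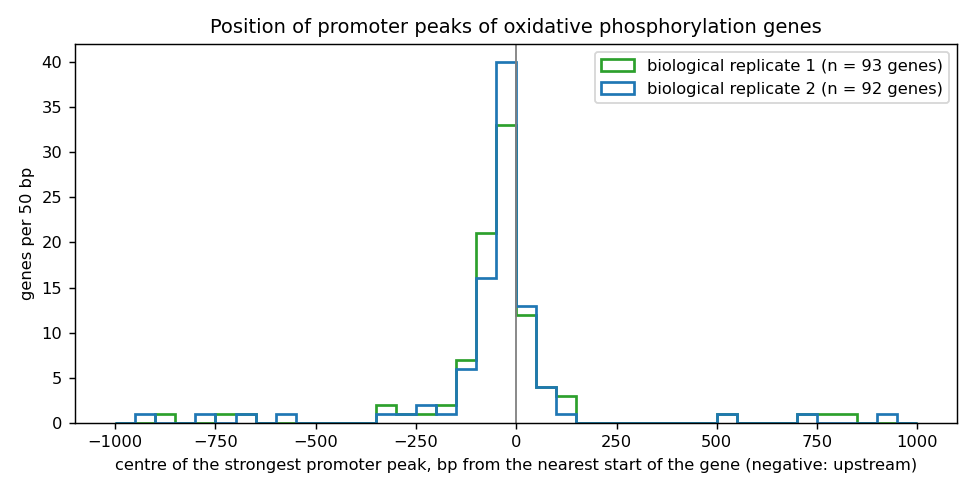
Distance from the nearest start of the gene to the centre of its strongest promoter peak (x axis, bp, negative upstream), as genes per 50 bp (y axis), for the 93 members with a peak in replicate 1 and the 92 in replicate 2. Most genes lie within 150 bp of the start, more of them upstream than downstream.

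Many members shared their promoter region with a gene read in the opposite direction. Another gene's protein-coding start on the opposite strand lay within 1000 bp at 32 of 98 members (32.7%), against 10.3% of all protein-coding genes, 41.0% of mitochondrial ribosomal protein genes and 22.0% of proteasome genes. These were 14 complex I, 3 complex II, 3 complex III, 1 complex IV and 5 complex V genes, 6 factors and 0 tissue isoforms. Some neighbours are mitochondrial too, such as Mrpl47 beside Ndufb5, Mrpl36 beside Ndufs6, and Timm8b, of the import machinery, beside Sdhd. In 11 members the strongest replicate 2 peak was nearer to another gene's start, and for these the score cannot be assigned to the member alone. Atp5j, which encodes coupling factor 6 of ATP synthase, and Gabpa, which encodes the DNA-binding subunit of GABP, had the same strongest promoter peak. It scored 145 in replicate 1 and 83 in replicate 2. That peak was centred 66 bp from a Gabpa start and 512 bp from an Atp5j start. Weaker peaks were shared too, among them a peak that scored 131 and 31.

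Across the 92 members with a peak in both lists, the strongest peaks overlapped at 89 genes and had the same position at 35, with a median distance of 20 bp. Across these genes, which share libraries and are not independent replicates, Spearman's rho between the scores of the lists was 0.71 and Pearson's r was 0.73. The strongest peaks did not overlap at Cox4i1, Ndufa4l2 and Sdhaf1, where the lists were 840, 420 and 180 bp apart. At the other genes the lists' strongest peaks overlapped at least in part.

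The DNA under the peaks was read from the GRCm38 reference (mm10) to show what the strongest promoters contain. The peaks of the highest-scoring gene of complexes I, III, IV and V in replicate 2 follow, 5′ to 3′ in the direction of the gene. All 4 genes are on the minus strand: Ndufs8 at chr19:3912816-3912965, Uqcrq at chr11:53430916-53431065, Cox8a at chr19:7217656-7217805 and Atp5g1 at chr11:96075816-96075965. Capitals mark matches, on either strand, to CCAAT (the NF-Y box) or GGGCGG (the GC box of SP and KLF factors). None of these 4 peaks held a match to the NRF1, ETS or YY1 motif given below.
Ndufs8: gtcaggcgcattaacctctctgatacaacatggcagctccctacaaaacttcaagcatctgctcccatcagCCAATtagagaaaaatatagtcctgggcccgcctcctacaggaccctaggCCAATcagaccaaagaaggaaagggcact
Uqcrq: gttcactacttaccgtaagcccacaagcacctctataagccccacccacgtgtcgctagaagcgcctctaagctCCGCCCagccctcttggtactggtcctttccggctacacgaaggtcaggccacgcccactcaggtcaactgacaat
Cox8a: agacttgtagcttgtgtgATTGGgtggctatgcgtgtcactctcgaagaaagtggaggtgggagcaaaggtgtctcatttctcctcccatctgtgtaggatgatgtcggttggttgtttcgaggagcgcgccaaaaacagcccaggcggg
Atp5g1: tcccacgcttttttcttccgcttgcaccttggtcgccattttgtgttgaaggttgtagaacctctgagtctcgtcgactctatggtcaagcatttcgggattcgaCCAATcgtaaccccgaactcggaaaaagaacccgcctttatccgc

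Motifs of the known regulators were counted in the 150 bp of each gene's strongest replicate 2 peak, on both strands, for 92 members and 10804 genes in all. A match describes the letters and does not show that a factor is bound. At the 11 members whose strongest peak was nearer to another gene's start, a match cannot be assigned to the member alone. The NRF1 motif GCGCNTGCG, which is nearly its own reverse complement so that 1 site can match on both strands, was present at 19 members (20.7%), against 10.2% of all genes. The ETS motif CCGGAAG was present at 19 members (20.7%), against 15.1%. The YY1 motif AAGATGGC was present at 7 members (7.61%), against 2.34%. At least 1 of the 3 was present at 39 members (42.4%), against 25.3% of all genes. Members with such a match had a median replicate 2 score of 65 and those without 70, while over all genes these medians were 65 and 62. For the ETS motif alone the medians of members were 70 with and 66 without a match, so scores and matches had no single direction.

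Promoters rich in CpG hold more of these letters, so the shares were also taken at a CpG ratio of at least 0.5. There the NRF1 motif was at 22.4% of members and 11.7% of all genes, the ETS motif at 22.4% and 17.2%, and the YY1 motif at 8.24% and 2.72%. The higher shares among members thus also held among CpG-rich promoters. They were not all particular to oxidative phosphorylation: mitochondrial ribosomal protein genes had the NRF1 motif at 17.1% and the ETS motif at 26.3%, and proteasome genes at 6.52% and 32.6%. The YY1 motif was at 5.26% of mitochondrial ribosomal protein genes and 2.17% of proteasome genes. In 300 bp around the peak centre it was at 17.4% of members, 18.4% of mitochondrial ribosomal protein genes, 13.0% of proteasome genes and 5.50% of all genes, so the YY1 share was not particular to the members either.

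NRF1 matches were spread over the complexes. They were present at 6 of 16 complex V genes with a peak (Atp5c1, Atp5h, Atp5k, Atp5l, Atp5mpl and Atp5o), at Ndufa5, Ndufa8, Ndufa13, Ndufb4, Ndufb10 and Ndufs5 in complex I, at Sdha, at Uqcr11 and Uqcrc1, at Cox6a1 and Cox6c, and at the factors Ndufaf5 and Sdhaf4. The NRF1 matches of Ndufa13 lay 777 and 778 bp upstream of its start, in a peak nearer to the start of Yjefn3. The 4 members Atp5h, Atp5k, Atp5l and Uqcr11 had both an NRF1 and an ETS match (4.35%, against 1.59% of all genes). The 3 tissue isoforms with a replicate 2 peak held no NRF1, ETS or YY1 match.

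The following peaks show these motifs in place, again in the direction of the gene, with capitals for matches to the NRF1, ETS, YY1, CCAAT or GGGCGG motif. Ndufs5 (chr4:123718236-123718385, minus strand), an accessory subunit of complex I, had the highest replicate 2 score, 92, of the members with an NRF1 match. Atp5l (chr9:44920936-44921085, minus strand), the g subunit of ATP synthase, holds CCAAT, NRF1 and ETS matches in a row and scored 76. Atp5j is shown by the 72 bases of its peak shared with Gabpa that are mostly outside exons (chr16:84834994-84835065, minus strand), which hold a YY1 and an ETS match. Cox7a1 (chr7:30184016-30184165, plus strand) is the muscle isoform with an open promoter, with 2 CCAAT matches.
Ndufs5: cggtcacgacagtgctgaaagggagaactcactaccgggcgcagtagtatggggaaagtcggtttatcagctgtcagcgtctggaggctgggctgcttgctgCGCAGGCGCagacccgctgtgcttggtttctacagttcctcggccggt
Atp5l: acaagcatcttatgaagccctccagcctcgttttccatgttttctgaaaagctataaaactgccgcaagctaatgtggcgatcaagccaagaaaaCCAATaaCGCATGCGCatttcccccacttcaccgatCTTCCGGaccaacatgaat
Atp5j: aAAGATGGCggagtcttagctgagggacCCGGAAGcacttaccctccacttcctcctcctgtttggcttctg
Cox7a1: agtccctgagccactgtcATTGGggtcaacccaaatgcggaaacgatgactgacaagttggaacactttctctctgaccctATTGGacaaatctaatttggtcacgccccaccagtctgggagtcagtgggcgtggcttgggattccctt

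The YY1 matches were alike in side and strand, though not in distance from the start. All 7 were downstream of the nearest start and read in the direction of the gene, against 44.8% downstream and 69.9% in the direction of the gene among the 259 matches of all genes. At 6 of the 7, the ATG within AAGATGGC was the annotated start codon of the member, against 61 of 259 (23.6%) over all genes. The letters of the motif and of the start of translation therefore coincide at these genes, and the counts cannot tell a binding site from coding sequence. The exception was Atp5j, whose match lay 442 bp downstream of its own nearest start. The sites are shown with 10 bases before the match, in capitals, and 12 after it, in the direction of the gene. They lie at chr6:126849096-126849125 (Ndufa9, minus strand), chr19:44555385-44555414 (Ndufb8, minus), chr3:51408914-51408943 (Ndufc1, minus), chr13:114388040-114388069 (Ndufs4, minus), chr1:171150562-171150591 (Sdhc, minus), chr9:108936706-108936735 (Uqcrc1, plus) and chr16:84835045-84835074 (Atp5j, minus).
Ndufa9: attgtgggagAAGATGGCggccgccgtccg
Ndufb8: ggagaaggtgAAGATGGCtgccgcccgggc
Ndufc1: cctgcggaacAAGATGGCgccgtccgtagt
Ndufs4: tgcctacaggAAGATGGCggcggtctcaat
Sdhc: gccggaactcAAGATGGCtgcgttcttgct
Uqcrc1: cggaagttagAAGATGGCggcgtccgcagt
Atp5j site: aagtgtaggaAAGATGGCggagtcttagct

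The distances from the start to these matches were 13 bp at Ndufa9 and Sdhc, 25 bp at Ndufb8, 34 bp at Ndufc1, 87 bp at Uqcrc1 and 202 bp at Ndufs4. Ndufa9, Ndufb8, Ndufc1 and Ndufs4 encode complex I accessory subunits, and Uqcrc1 a core protein of complex III. The NRF1 and ETS matches of members were also placed further downstream than those of all genes, with median positions of 3 bp and 4.5 bp downstream of the start, against 42 and 22 bp upstream. The shift was not limited to these motifs. CCAAT matches had medians of 58.5 bp upstream against 71 bp, and GGGCGG matches 42 bp against 53 bp. Matches were sought within the peaks, whose centres had medians of 33 bp upstream in members and 54 bp in all genes. Whether the matches moved apart from the peaks was not tested.

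Of the other motifs, GGGCGG was present at 34 of 92 (37%), against 47.9% of all genes, and CCAAT at 28 (30.4%), against 32.8%. From 250 bp before to 50 bp after the start, GGGCGG was at 44 of 98 members (44.9%), against 44.9% of all 21851 genes, with or without a peak. The E-box CACGTG was at 4 (4.35%, against 7.42%), the cyclic AMP response element TGACGTCA at 3 (3.26%, against 2.94%) and the TATA box TATAAA at 3 (3.26%, against 2.20%). In that window around the start the order of members and all genes was the reverse for the E-box, TATA and GATA motifs. There the set of genes changed along with the window. The erythroid GATA motif AGATAA was at 1 member, Cox7c (1.09%, against 4.49%). The estrogen-related receptor motif TCAAGGTCA was at 2, Sdhd and Atp5g3 (2.17%, against 0.130%, or 14 of 10804 genes). The single GATA and both estrogen-related receptor matches are shown as 30-base sites at chr13:86046853-86046882 (Cox7c), chr9:50603794-50603823 (Sdhd) and chr2:73911359-73911388 (Atp5g3), all on the minus strand and read in the direction of the gene. The site of the ETS match in Sdhb, the leading gene of complex II, is at chr4:140961267-140961296 on the plus strand. Capitals mark the match, which is the reverse complement of the motif at Cox7c, Sdhd and Atp5g3.
Cox7c: gcgcccggtaTTATCTaaactacaaagccc
Sdhd: ggttgtagagTGACCTTGAgccctcgaaag
Atp5g3: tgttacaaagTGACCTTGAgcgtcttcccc
Sdhb: ctcggagaaaCCGGAAGcggccttccactc

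**Figure D5:**
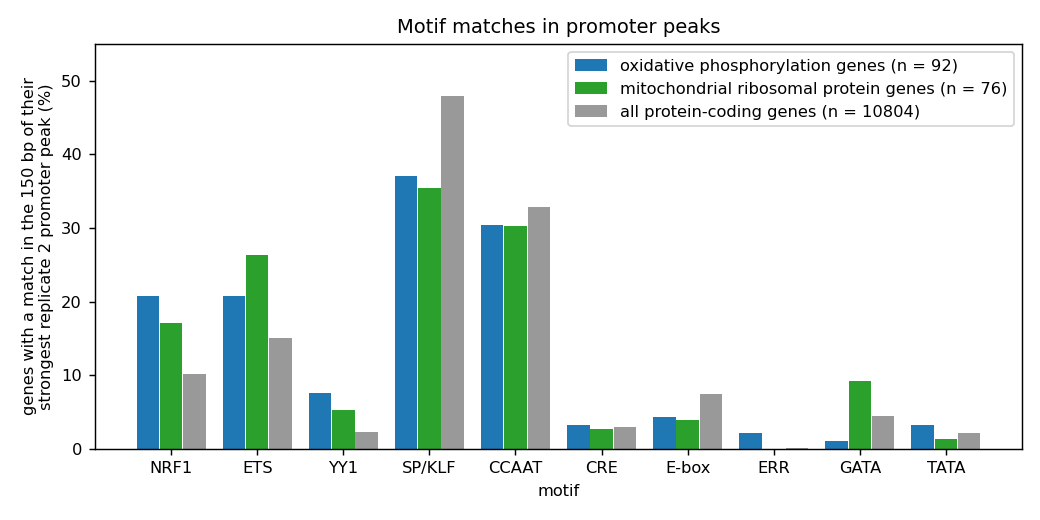
Share of genes (y axis, percent) whose strongest replicate 2 promoter peak holds a match to each motif (x axis), for 92 oxidative phosphorylation genes, 76 mitochondrial ribosomal protein genes and 10804 protein-coding genes in all. The NRF1, ETS and YY1 shares of the members (20.7%, 20.7% and 7.61%) lie above those of all genes (10.2%, 15.1% and 2.34%), and the SP/KLF share (37%) lies below (47.9%).

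The genes that work with the subunits but fall outside the symbol prefixes were also mostly open. Of 70 listed genes 69 were found, and 67 had a promoter peak in replicate 1 (97.1%) and 66 in replicate 2 (95.7%), against 58.3% and 49.4% of all genes. All 22 complex IV assembly genes, all 11 coenzyme Q synthesis genes and all 6 complex III assembly genes had one in both lists. These counts include peaks nearer to a neighbour, such as Zfp142 at Bcs1l, Xab2 at Pet100 and Fam161b at Coq6 in replicate 2. When each peak was credited to the nearest start alone, the totals dropped to 61 of 69 (replicate 1) and 54 of 69 (replicate 2). Over all protein-coding genes that rule left 57.1% and 47.0%. Cycs, the cytochrome c of most tissues, scored 140 and 80, and Cyc1, the cytochrome c1 of complex III, scored 122 and 42. Cyct, the testis form of cytochrome c, had none in either list. In complex IV the testis forms Cox7b2 and Cox8c likewise had none, whereas Cox6b2 had one in both lists.

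Regulators of mitochondrial biogenesis had a promoter peak at 15 of 16 genes in replicate 1 and 14 of 16 in replicate 2. Among those that bind promoters, Nrf1 scored 131 and 35, Yy1 scored 144 and 70, Sp1 scored 150 and 129, and Esrra, an estrogen-related receptor, scored 149 and 88. The GABP genes Gabpb1 and Gabpb2 scored 141 and 59, and 150 and 112. Of the PGC-1 coactivator family, Pprc1 scored 149 and 103, Ppargc1b scored 134 in replicate 1 alone, and Ppargc1a had no promoter peak in either list. Tfam, which packages mitochondrial DNA, scored 143 and 64, and Polrmt, the mitochondrial RNA polymerase, scored 144 and 98. Ppargc1b and Ppargc1a were thus the listed regulators without a peak in at least 1 list.

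Processed pseudogenes of the same families, copies of the sequence without the promoter, were counted as well. Of 12 such pseudogenes, 2 had a peak within 1000 bp of their start in replicate 1 and 1 in replicate 2. Of all protein-coding genes, 58.3% and 49.4% had a promoter peak. No share over other processed pseudogenes was taken and repeated sequence was not checked there, so what the missing peaks reflect was not tested. Ndufs6b scored 110 and 33, and Uqcrh-ps1 scored 43 in replicate 1 alone. Ndufb1, a complex I subunit, enters the annotation as the non-coding Ndufb1-ps and so is not a member, and its start had peaks of 134 and 40.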

How the data were processed

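Per the labels, DNase-seq was made from 3 libraries of MEL cells in 2 biological replicates, on the mm10 build. The authors deposited called peaks with a score and hotspots with a −log10 q-value (1.30 to a cap of 100). The replicate 1 lists come from an alignment of its 2 libraries and the replicate 2 lists from 1 library, per the deposited notes. The aligner, the caller and the meaning of the score are not given in the sources used here, and the depth is unknown. Scores reach at most 150, which is also the peak width in bp. In replicate 1 the middle 50% of all genes with a promoter peak lay from 125 to 145, near this maximum. Whether high values are compressed was not tested.

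Exact repeats (67 and 7 peaks) were dropped. Peaks on chromosomes 1 to 19, X and Y (281048 and 88879) were assigned to GENCODE M21 basic genes. Sequences and the CpG ratio came from the RefSeq GRCm38 genome. Columns of values left unused numbered 0. The work used Python 3.11.15 with pandas 2.3.3, numpy 2.4.6, matplotlib 3.10.9 and scipy 1.17.1. Promoter assignment and motif search were tested on simulated data. Since each biological replicate gave 1 list, samples were not tested against each other and no p-value is given.

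Members, gene lists, motifs and alternatives were chosen with earlier results of these data known. The rule named, in each complex and among the factors, the 3 highest and the lowest replicate 2 scores, every tissue isoform with its partner, members without a peak, the regulators, Cycs and Cyc1. A gene that the rule names in complex I is not reported here. Subunits outside the rule were named to fill in a complex's roles. The sequences of Atp5l, Cox7a1 and all 30-base sites, the splits by CpG ratio and the start codon comparison were chosen after the values were seen.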

Additional observations from a re-analysis of the deposited data

Results flagged for a closer look

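The mitochondrial genome, outside the comparison of nuclear promoters, also held peaks within genes for subunits of the same complexes. Peaks centred in its 13 protein-coding genes numbered 13 in replicate 1 and 22 in replicate 2, of 17 and 32 peaks on the mitochondrial genome. They fell in 6 of the 13 genes in replicate 1 and 7 in replicate 2. The genes mt-Nd2, mt-Co1, mt-Nd4, mt-Nd5, mt-Nd6 and mt-Cytb had them in both lists and mt-Nd1 in replicate 2 alone, whereas mt-Co2, mt-Co3, mt-Atp6, mt-Atp8, mt-Nd3 and mt-Nd4l had none in either. These genes without a peak lie side by side, from 7013 to 10173, so they are 1 stretch and not separate results. Repeated sequence was not checked there, and the counts were not set against the share of the mitochondrial genome that the genes take up. The highest score in each of the 6 genes was 150 in replicate 1. Mitochondrial DNA is not packed in nucleosomes and is present in many copies, and what these peaks reflect was not tested. The replicate 2 list, the shorter of the lists, had more of them.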

How the results depend on the processing

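Of 150 promoter peak counts under other settings, 148 stayed within 1.5 times the reported count. The exceptions were the tissue isoforms at 2500 bp, with 7 of 8 in replicate 1 and 5 of 8 in replicate 2, against 66.2% and 54.5% of all genes. The isoforms' shares, below those of all genes at 1000 bp, were thus above them at 2500 bp. There Cox4i2 and Cox8b gained a replicate 1 peak, Cox6a2 a replicate 2 peak and Cox7b2 one in both lists, so their lack of a peak holds for the 1000 bp window. At 500 bp Atp5f1 and Sdhaf1 lost theirs in both lists and Ndufa13 in replicate 2. Counting a peak for the nearest start alone removed Ndufa1, Ndufa2, Ndufa13, Ndufaf2, Ndufb9 and Ndufs3 in replicate 2. With the replicate 1 list limited to scores of at least 98 (89469 peaks), Cox6a2 lost its peak.

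Of 20 motif counts, 11 stayed within 1.5 times. In 300 bp around the peak centre the members with a match were 16 for YY1, 5 for CRE, 8 for the E-box, 4 for GATA and 5 for TATA. From 250 bp before to 50 bp after the start they were, of 98 members, 5 for CRE (5.10%, against 2.50% of all genes), 8 for the E-box (8.16%, against 7.78%), 10 for GATA (10.2%, against 9.93%) and 10 for TATA (10.2%, against 12.5%). All genes here are the 21851 protein-coding genes with or without a peak, whereas the peak windows take the 10804 with a replicate 2 peak. The order of members and all genes turned for the E-box, GATA and TATA. Window and gene set changed together, so their parts in this turn cannot be told apart. In 300 bp, with the 10804 genes, the order kept its side for these 3 (8.70% against 11.2%, 4.35% against 7.88%, 5.43% against 5.12%). No paired analysis was possible because the results come from no test between groups. Without read counts, the depth behind a missing peak is unknown.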
